A study of Rattus norvegicus with 9 samples.

Results

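The 10 genes described here, *Acta2*, *Actg2*, *Tagln*, *Cnn1*, *Myh11*, *Myl9*, *Tpm1*, *Tpm2*, *Des* and *Lmod1*, encode proteins of the smooth muscle contractile apparatus and were picked by gene symbol from the 32883 genes of the deposited tables. Each symbol occurred once. Poly(A) RNA was measured in 9 libraries of unsorted fibroblast cultures from wild-type Lewis rats, namely 3 from Fb-Epn, made from the epineurium (the outer sheath) of the sciatic nerve, 3 from Fb-Par, made from the parenchyma inside that sheath, and 3 from Fb-Skn, made from abdominal skin. Both nerve types came from 2 male rats and Fb-Skn from a further male rat, each at 10 weeks of age. All cultures were grown in serum on uncoated plastic and taken after 1 passage. No treatment was given. Tissue, body site and animal change together between the nerve types and Fb-Skn and cannot be told apart, and with so few rats the libraries of a type are not separate animals, so that errors and p-values cover only the spread between these libraries.

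Contractile cells shorten when myosin II pulls on actin filaments. Smooth muscle cells use dedicated forms of actin, myosin, tropomyosin and their partners, and fibroblasts that take on part of this set, above all *Acta2* with its product alpha-smooth muscle actin, are called myofibroblasts. Such cells are known from healing wounds, from scar tissue and from culture on stiff plastic in serum. Much of the set is under serum response factor and its partners myocardin and the myocardin-related factors.

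Total counts per library ranged from 10084584 to 12310506. Markers of fibroblasts (*Col1a1*, *Col3a1*, *Pdgfra*, *Thy1*, *Dcn*, *Lum*) summed to 25824 TPM or more in every library. TPM is a level per gene length, scaled to the same total in each library. Other cells were also represented: 5 leukocyte markers, led by *Lyz2*, summed to 1112 to 1171 TPM in Fb-Epn, 211 to 224 for Fb-Par and 68.7 to 72.4 for Fb-Skn, and 6 Schwann cell markers to 183 to 195, 249 to 255 and 10.5 to 13.2 TPM. The part of these cells in the results was not tested. In whole cultures, fewer cells with a contractile program and less contractile RNA per cell cannot be told apart.

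As a group the contractile genes were least abundant in Fb-Epn. Their summed level was 11394 ± 108 TPM in Fb-Epn, 19823 ± 319 for Fb-Par and 25844 ± 148 for Fb-Skn (SD, n = 3), which is 1.14%, 1.98% and 2.58% of all TPM. The libraries of the 3 types did not overlap, with 11297 to 11511, 19540.3 to 20168 and 25707 to 26001 TPM. The sum was 2.27-fold higher in Fb-Skn and 1.74-fold higher in Fb-Par than Fb-Epn, and 1.30-fold higher in Fb-Skn than in Fb-Par (exact two-sided permutation test, p = 0.10 for each, the smallest that 3 against 3 libraries allow). *Acta2* and *Tagln* made up 74.8% of the sum in Fb-Epn, 65.0% for Fb-Par and 77.9% for Fb-Skn, so the sum mainly followed these genes.

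The single genes did not share one order. By mean TPM, 4 genes (*Acta2*, *Tagln*, *Cnn1*, *Lmod1*) ran from Fb-Skn over Fb-Par down to Fb-Epn, and 4 (*Myh11*, *Myl9*, *Tpm1*, *Tpm2*) from Fb-Par over Fb-Skn down to Fb-Epn. *Actg2* was highest in Fb-Par and nearly level in the other types, and *Des* was highest in Fb-Epn. Thus 8 of the 10 had their lowest mean in Fb-Epn, where 24.9% of all tested genes had theirs. *Des* apart, all neighbours in these orders differed beyond their spread in the test on counts, except Fb-Epn and Fb-Skn for *Actg2*, and Fb-Par and Fb-Skn for *Myl9* and *Tpm1*.

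**Figure D1:**
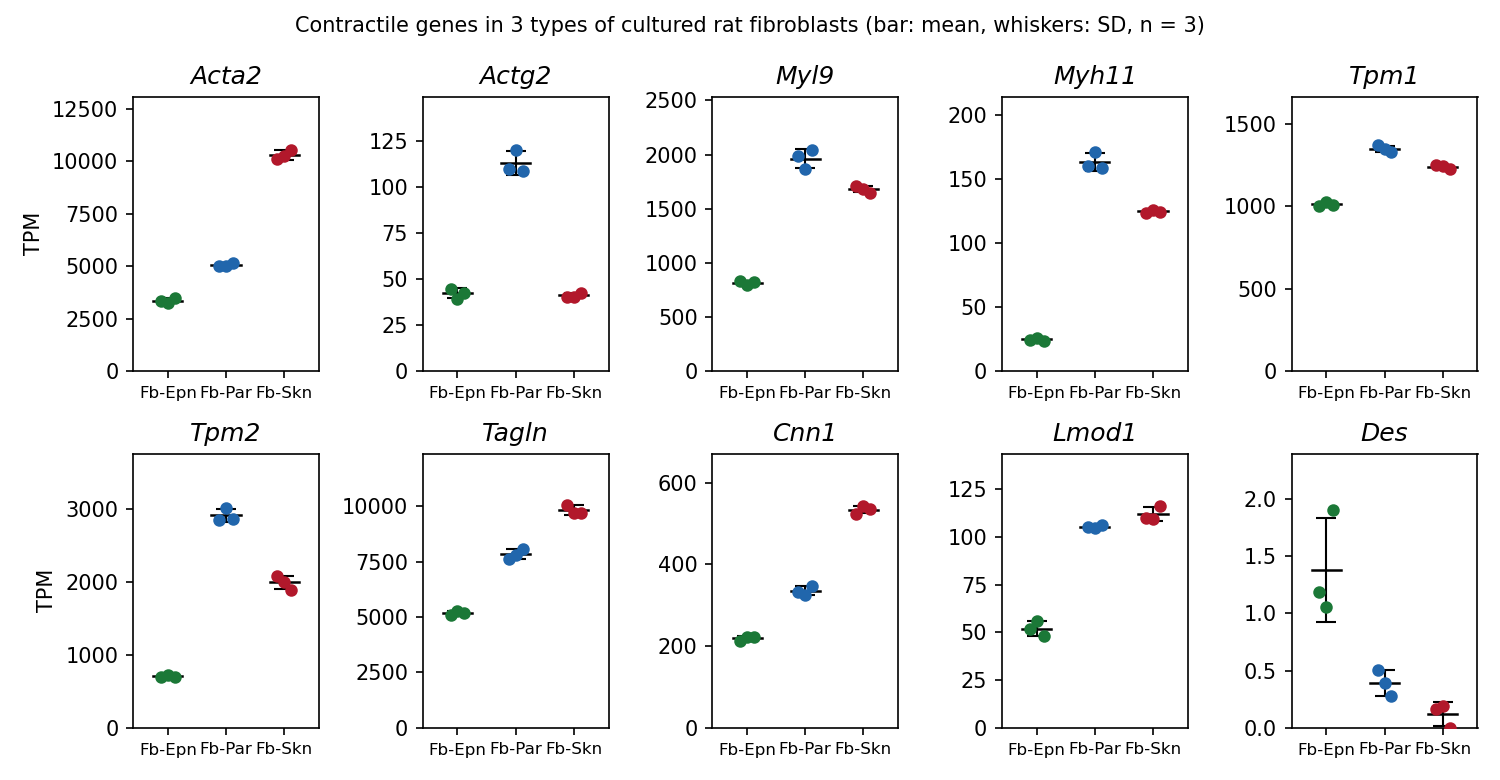
TPM of each contractile gene (vertical axis, starting at 0) in the 3 libraries of each type. Points are libraries, the bar is the mean and whiskers are the SD. *Acta2* rises from 3357 in Fb-Epn to 10307 in Fb-Skn, *Tpm2* and *Actg2* peak in Fb-Par, and *Des* stays at or under 1.90 in every library.

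The quasi-likelihood test of edgeR was run on the counts, with the 9 libraries in 1 model, over the 13273 genes past the expression filter. A gene was called at a Benjamini-Hochberg adjusted p under 0.01, and counted as a DE gene when its log2 fold change was also above 2 or below -2. All 10 contractile genes passed the filter. *Des* passed it only through Fb-Epn, where it had 13 to 21 counts, and so had to be higher there. It is therefore left out of the counts and medians below, which cover the other 9 genes except where *Des* is named. Its test is drawn in the figures but not read as a result.

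In Fb-Epn against Fb-Skn, 8 of these 9 contractile genes were called, against 43.9% of all tested genes. All 8 were lower in Fb-Epn, a direction called for 20.9% of all tested genes, while 23% were called higher. *Myh11* was a DE gene, lower in Fb-Epn, as were 2.22% of all tested genes, with 6.22% higher and 8.44% in either direction. The median log2 fold change of the 9 genes was -1.25 and that of all tested genes -0.0028.

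Between Fb-Epn and Fb-Par, all 9 were called, where 38.8% of all tested genes were. Each was lower in Fb-Epn, as were 18.6% of all tested genes, while 20.2% were higher. *Myh11* and *Tpm2* were DE genes, both lower in Fb-Epn, as were 2.39% of all tested genes, with 4.09% higher and 6.48% in either direction. The median log2 fold change was -1.01, beside -0.00018 over all tested genes.

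Fb-Par and Fb-Skn differed without a common direction. Of the 7 genes called (45.6% of all tested genes), *Actg2*, *Tpm2* and *Myh11* were higher in Fb-Par (23.2%), and *Acta2*, *Tagln*, *Cnn1* and *Lmod1* were lower (22.4%). None was a DE gene in edgeR, also at an unadjusted p under 0.05, nor in DESeq2 or limma, against 8.54% of all tested genes (5.86% higher and 2.67% lower in Fb-Par). The 9 genes had a median log2 fold change of -0.03 and all tested genes one of -0.01. The 3 comparisons share libraries and are not independent of one another.

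**Figure D2:**
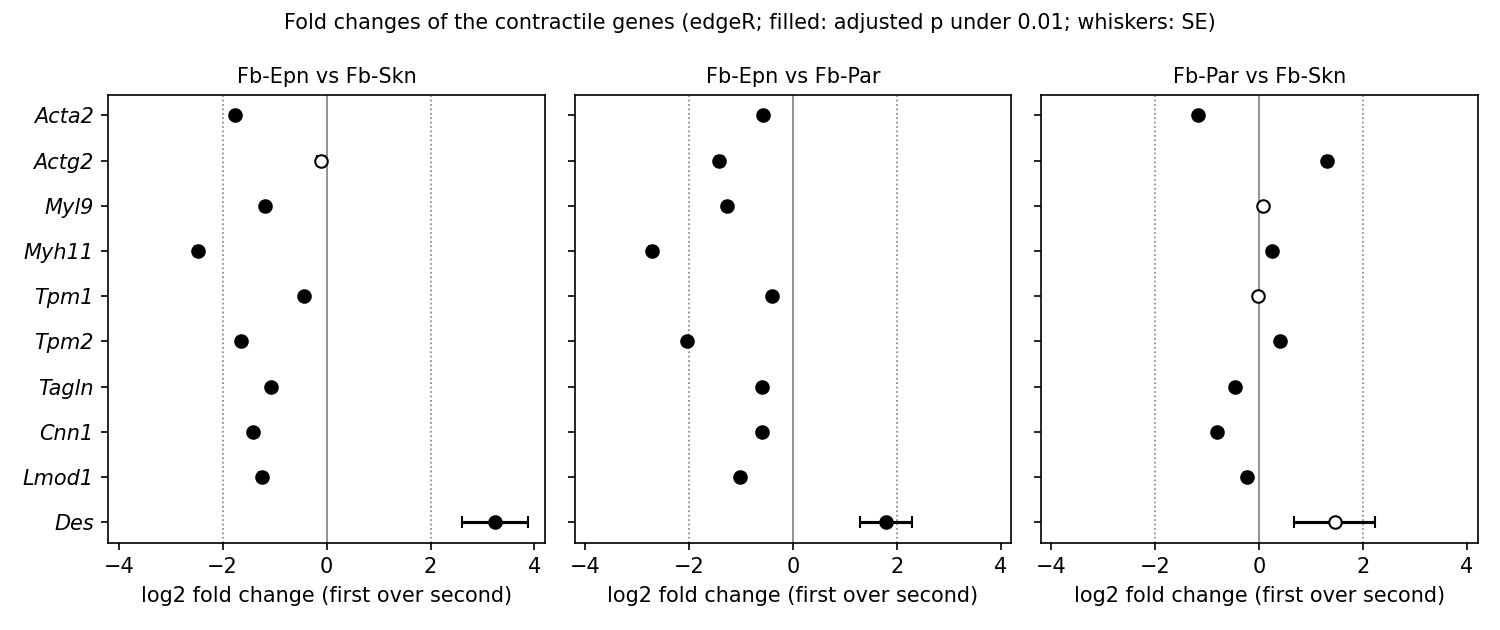
Log2 fold change of each contractile gene in the 3 comparisons (horizontal axis, first type over second, whiskers are the standard error). Filled points were called in edgeR at an adjusted p under 0.01, open points were not, and dotted lines mark -2 and 2. Apart from *Des*, the points lie left of 0 in both comparisons of Fb-Epn, while in Fb-Par vs Fb-Skn they lie on both sides. *Des* passed the filter through Fb-Epn alone, so its points are not read as a test.

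The contractile actins differed widely in level. *Acta2* (ENSRNOG00000058039, chromosome 1 from 252537615 to 252550394 of rn6, minus strand) encodes alpha-smooth muscle actin. Its TPM was 3355, 3243 and 3475 in the Fb-Epn libraries, 4995, 5014 and 5146 for Fb-Par and 10107, 10269 and 10544 for Fb-Skn. The 3 types did not overlap, and by mean TPM *Acta2* ranked 25 among all genes in Fb-Epn, 16 for Fb-Par and 4 for Fb-Skn. In edgeR, it was 3.38-fold lower in Fb-Epn than Fb-Skn (log2 fold change -1.76, standard error 0.03, adjusted p = 4.1e-16), 1.49-fold lower in Fb-Epn than Fb-Par (adjusted p = 6.8e-11) and 2.26-fold lower in Fb-Par than Fb-Skn (adjusted p = 1.9e-14).

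*Actg2* (ENSRNOG00000029401, chromosome 4) encodes gamma-smooth muscle actin, the form typical of visceral muscle, and it followed another course. Its TPM was 44.6, 39.2 and 42.5 in Fb-Epn, 109.7, 120.3 and 109 for Fb-Par and 40.3, 40.3 and 42.4 for Fb-Skn. Every Fb-Par library was above every library of the other types, while Fb-Epn and Fb-Skn overlapped. It was 2.48-fold higher in Fb-Par than Fb-Skn (adjusted p = 4.9e-10, edgeR) and 2.66-fold higher in Fb-Par than Fb-Epn (adjusted p = 2.3e-10). Between Fb-Epn and Fb-Skn the fold was 1.07 with an approximate 95% interval of 0.974 to 1.18 (adjusted p = 0.25, edgeR). For each 100 TPM of *Acta2* there were 1.25 ± 0.0653 TPM of *Actg2* in Fb-Epn, 2.24 ± 0.147 for Fb-Par and 0.398 ± 0.00523 for Fb-Skn (SD, n = 3).

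The sequences before the starts of *Acta2*, of *Cnn1*, whose levels followed the same order, and of *Tpm1*, which varied least in fold, were set side by side. They are the 250 bases upstream of the start in RefSeq's table for the GRCr8 build, which held 6 of the 10 genes, and the 3 were chosen after their levels were seen. Capitals mark matches, read on both strands, to the CArG box, the site of serum response factor, with at most 1 base other than A or T in its middle, and to the MCAT element CATTCC or GGAATG, the site of TEAD factors. The windows are chr1:241172504-241172753 on the minus strand, chr8:28908187-28908436 on the plus strand and chr8:76543416-76543665 on the minus strand.
Acta2: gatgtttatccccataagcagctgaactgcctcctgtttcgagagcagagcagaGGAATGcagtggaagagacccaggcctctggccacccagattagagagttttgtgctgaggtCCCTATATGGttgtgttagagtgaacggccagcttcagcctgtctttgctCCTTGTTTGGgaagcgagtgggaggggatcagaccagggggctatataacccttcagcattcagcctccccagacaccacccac
Cnn1: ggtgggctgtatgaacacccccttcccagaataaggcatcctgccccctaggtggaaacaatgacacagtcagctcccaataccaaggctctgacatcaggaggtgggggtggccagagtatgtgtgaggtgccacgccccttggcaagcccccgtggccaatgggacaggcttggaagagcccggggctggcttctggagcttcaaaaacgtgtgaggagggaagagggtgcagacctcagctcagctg
Tpm1: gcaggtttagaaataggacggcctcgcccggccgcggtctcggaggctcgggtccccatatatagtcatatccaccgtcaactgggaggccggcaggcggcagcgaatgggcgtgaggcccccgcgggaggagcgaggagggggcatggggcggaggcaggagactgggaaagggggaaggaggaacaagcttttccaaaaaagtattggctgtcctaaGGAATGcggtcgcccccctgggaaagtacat

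*Acta2* held 2 such CArG matches, starting 134 and 84 bases before its start, and 1 MCAT match 196 bases before it. *Tpm1* held 1 MCAT match, 31 bases before its start, and the *Cnn1* window held none of either. Among the 6 contractile genes in the table, 1 had a CArG match, as did 8.08% of all 33469 promoters, and 2 had an MCAT match, as did 12.1%. A CArG box with no other base in its middle was in 1.5% of all promoters and in 0 of the 6. A match is a description of these letters only.

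Besides the contractile actins, fibroblasts make the cytoplasmic actins *Actb* and *Actg1* in every type. *Acta2* made up 26.9 ± 0.245% of the TPM of the 6 actin genes in Fb-Epn, 39.8 ± 0.645% for Fb-Par and 52.7 ± 0.436% for Fb-Skn (SD, n = 3). *Actb* fell from 55.6% in Fb-Epn over 46.5% in Fb-Par to 39.5% in Fb-Skn as a share, and *Actg1* from 17.1% over 12.1% to 7.62%. The summed actin TPM was 12481 ± 545 in Fb-Epn, 12686 ± 141 for Fb-Par and 19564 ± 455 for Fb-Skn. Fb-Epn and Fb-Par therefore had a like total with unlike isoforms. Each difference of the *Acta2* share between types had p = 0.10 (exact two-sided permutation test, the smallest possible). Actin genes are close in sequence, and how the authors treated reads that fit several of them is not given in the sources used here, so small shares such as the 0.890% of *Actg2* in Fb-Par or the 0.677% of *Acta1* are uncertain.

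**Figure D3:**
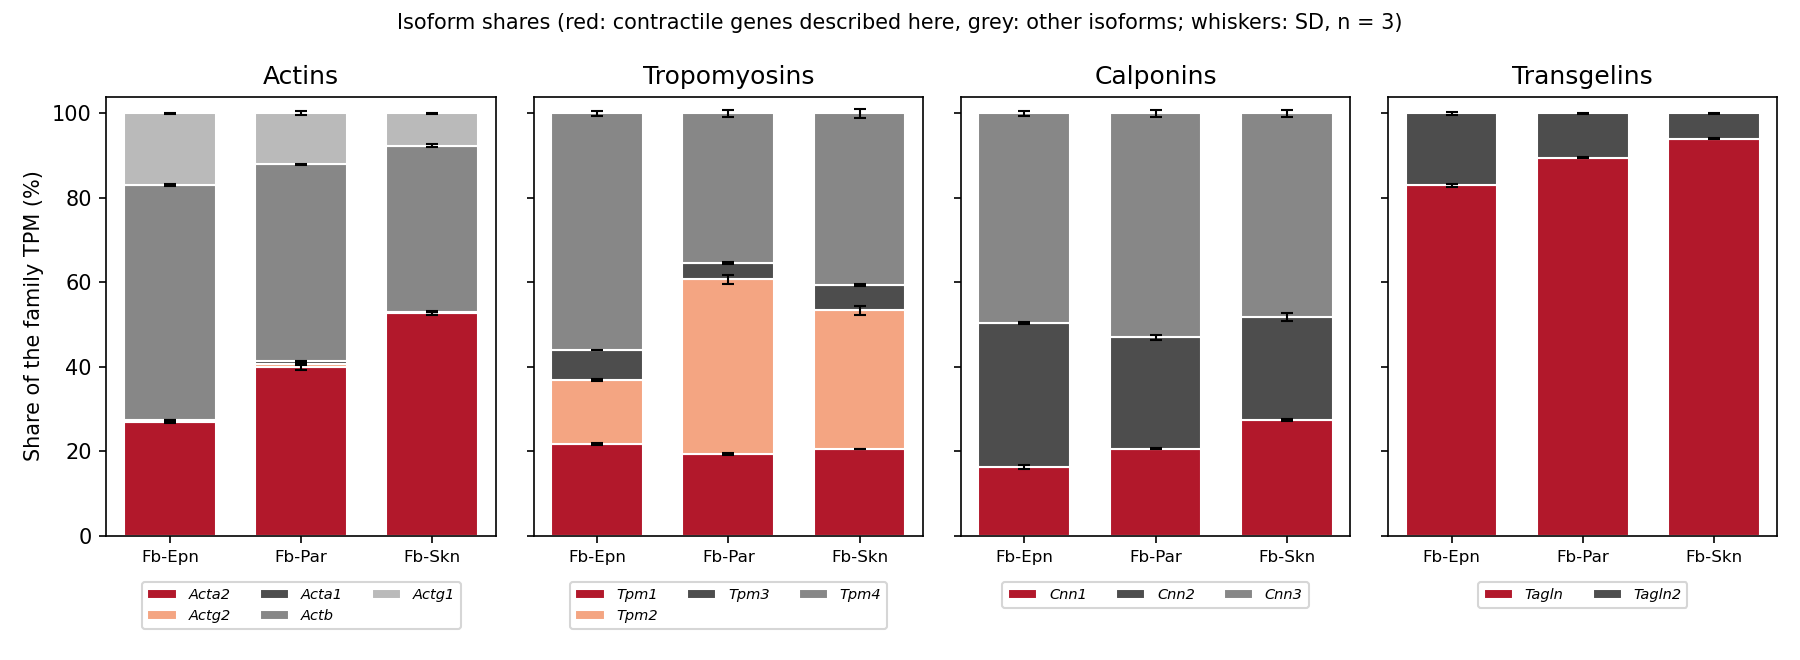
Share of each isoform in the summed TPM of its family (vertical axis in percent, starting at 0) for actins, tropomyosins, calponins and transgelins in the 3 types. Stacked bars are means, whiskers the SD of 3 libraries, red tones the contractile genes and grey tones other isoforms, and isoforms under 0.5% in all types are left out. The *Acta2* share is 26.9% in Fb-Epn and 52.7% in Fb-Skn, while *Tpm2* is widest in Fb-Par at 41.5%.

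Both myosin genes of the set, *Myh11* and *Myl9*, were lowest in Fb-Epn. *Myh11* (ENSRNOG00000057880, chromosome 10) encodes the smooth muscle myosin heavy chain, a late marker of smooth muscle. Its TPM was 24.3, 26.0 and 23.6 in Fb-Epn, 160.4, 172 and 159 for Fb-Par and 124, 126 and 125 for Fb-Skn. No 2 types overlapped, and the Fb-Epn libraries were far below the others. In edgeR, *Myh11* was 6.59-fold lower in Fb-Epn than Fb-Par (log2 fold change -2.72, standard error 0.05, adjusted p = 1.6e-15) and 5.58-fold lower than in Fb-Skn (log2 fold change -2.48, standard error 0.05, adjusted p = 4.4e-15). Fb-Par was 1.18-fold above Fb-Skn (adjusted p = 0.00015).

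Relative to *Acta2*, *Myh11* was highest in Fb-Par, with 3.24 ± 0.170 TPM for each 100 of *Acta2*, beside 1.21 ± 0.0263 in Fb-Skn and 0.735 ± 0.0628 in Fb-Epn (SD, n = 3). *Myh10*, the heavy chain of non-muscle myosin IIB, had another order of types, with 65.7 ± 1.80 TPM in Fb-Par, 128 ± 1.91 in Fb-Epn and 293 ± 13.2 in Fb-Skn. *Myh11* was thus above *Myh10* per length in Fb-Par and below it in the other types. No share of the myosin heavy chains is given, since *Myh9* had only 109 to 226 counts per library beside 2911 to 6776 for a second listed gene, *Myh9l1*.

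*Myl9* (ENSRNOG00000020246, chromosome 3) encodes a regulatory light chain of myosin, whose phosphorylation switches contraction on. Its TPM was 827, 789.8 and 818 in Fb-Epn, 1984, 1864 and 2038 for Fb-Par and 1709.7, 1681 and 1649 for Fb-Skn. The Fb-Epn libraries lay below all others, 2.40-fold under Fb-Par (adjusted p = 7.5e-13, edgeR) and 2.28-fold under Fb-Skn (adjusted p = 1.2e-12). Between Fb-Par and Fb-Skn the TPM did not overlap but the normalised CPM, counts scaled by library, did, at 928 to 1011 against 900.1 to 961. The fold there was 1.05 with an approximate 95% interval of 1.00 to 1.10 (adjusted p = 0.094, edgeR). On TPM the same difference was called, with a log2 value of 0.22 (adjusted p = 0.00054, limma on log2(TPM + 1)).

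The contrast between the scales touches every small difference against Fb-Skn. Over the 11313 genes with at least 10 counts in every library, the TPM ratio exceeded the edgeR fold change by a median of 0.14 on the log2 scale for Fb-Epn vs Fb-Skn and 0.15 for Fb-Par vs Fb-Skn, and by -0.01 for Fb-Epn vs Fb-Par. On TPM, 69.0% of all calls between Fb-Epn and Fb-Skn were higher in Fb-Epn, beside 52.3% in edgeR, and 66.9% of those between Fb-Par and Fb-Skn were higher in Fb-Par, beside 50.8%.

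The tropomyosins, coiled rods that lie along the actin filament, showed that members of one family can differ. *Tpm2* (ENSRNOG00000016731, chromosome 5), which encodes beta-tropomyosin, had a TPM of 695, 718 and 701 in Fb-Epn, 2851, 3013 and 2856 for Fb-Par and 2077, 1998 and 1894 for Fb-Skn. The types did not overlap, with Fb-Par highest. It was 4.09-fold lower in Fb-Epn than Fb-Par (log2 fold change -2.03, standard error 0.04, adjusted p = 1.3e-14, edgeR), just past the limit for a DE gene, and between -2.05 and -2.01 with each library left out in turn. It was 3.11-fold lower in Fb-Epn than Fb-Skn (adjusted p = 1.2e-13, edgeR), and Fb-Par was 1.32-fold above Fb-Skn (adjusted p = 7e-07).

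*Tpm1* (ENSRNOG00000018184, chromosome 8) encodes alpha-tropomyosin in muscle and non-muscle forms that gene counts do not separate. Its TPM was 1003, 1024 and 1007 in Fb-Epn, 1371, 1345 and 1329.7 for Fb-Par and 1249, 1242 and 1224 for Fb-Skn. All libraries of Fb-Epn were below the rest, but the steps were small, 1.32-fold against Fb-Par (adjusted p = 5.1e-09, edgeR) and 1.35-fold against Fb-Skn (adjusted p = 2.3e-09). Between Fb-Par and Fb-Skn its log2 fold change was -0.03 (standard error 0.03, adjusted p = 0.38, edgeR), and the direction turned on TPM, with 0.12 (adjusted p = 0.0018, limma on log2(TPM + 1)).

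For each 100 TPM of *Tpm1* there were 69.7 ± 0.448 of *Tpm2* in Fb-Epn, 216 ± 7.99 for Fb-Par and 161 ± 5.83 for Fb-Skn (SD, n = 3). *Tpm1* was thus the more abundant of the pair in Fb-Epn and *Tpm2* in the other types. Of the TPM of the 4 tropomyosin genes, *Tpm2* took 15.1 ± 0.243% in Fb-Epn, 41.5 ± 1.10% for Fb-Par and 32.9 ± 1.17% for Fb-Skn. The share of *Tpm1* stayed between 19.2% and 21.7%, and that of *Tpm4*, a non-muscle form, was 56.1%, 35.4% and 40.7% in the same order of types. The total of the family was 4670 ± 54.3 TPM in Fb-Epn, 7008 ± 92.9 for Fb-Par and 6053 ± 66.4 for Fb-Skn.

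*Tagln*, *Cnn1* and *Lmod1*, whose products act on actin filaments, ran from Fb-Skn down to Fb-Epn. *Tagln* (ENSRNOG00000017628, chromosome 8) encodes transgelin, or SM22-alpha, an actin-bundling protein and early marker of smooth muscle. Its TPM was 5082, 5257 and 5172 in Fb-Epn, 7630.0, 7803 and 8078 for Fb-Par and 10059.8, 9698 and 9697 for Fb-Skn. The types did not overlap. It was 2.09-fold lower in Fb-Epn than Fb-Skn (adjusted p = 4e-13, edgeR) and 1.39-fold lower in Fb-Par than Fb-Skn (adjusted p = 3.4e-09). The log2 fold change between Fb-Epn and Fb-Par was -0.59 (adjusted p = 3.7e-10, edgeR).

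In both nerve types *Tagln* was more abundant than *Acta2*, with 154 ± 7.01 and 155 ± 2.16 TPM for each 100 of *Acta2* in Fb-Epn and Fb-Par, but not in Fb-Skn, with 95.3 ± 3.86 (SD, n = 3). It made up 83.0 ± 0.422% of the transgelin TPM in Fb-Epn, 89.5 ± 0.0574% for Fb-Par and 94.0 ± 0.117% for Fb-Skn, with *Tagln2* as nearly all of the rest. A span of 1019 bases of *Tagln* lies within *Sidt2* on the same strand, and *Sidt2* had 1536 to 3848 counts per library beside 32012 to 68744 for *Tagln*.

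*Cnn1* (ENSRNOG00000027736, chromosome 8) encodes calponin, which restrains the myosin motor on actin. Its TPM was 213, 222 and 222 in Fb-Epn, 334, 325 and 347 for Fb-Par and 524, 542 and 535 for Fb-Skn. The types did not overlap and stood in the order of *Acta2*, with a 2.68-fold difference between Fb-Epn and Fb-Skn (adjusted p = 1.4e-13, edgeR), 1.52-fold between Fb-Epn and Fb-Par (adjusted p = 3e-09) and 1.77-fold between Fb-Par and Fb-Skn (adjusted p = 4.9e-11). *Cnn1* made up 16.3 ± 0.388% of the calponin TPM in Fb-Epn, 20.6 ± 0.197% for Fb-Par and 27.3 ± 0.306% for Fb-Skn. *Cnn3*, a form found outside muscle, took the most in each type, 48.2% to 53.1%.

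*Lmod1* (ENSRNOG00000051548, chromosome 13) encodes leiomodin, which starts new actin filaments in smooth muscle. Its TPM was 51.6, 56.0 and 48.1 in Fb-Epn, 105, 105 and 106 for Fb-Par and 109.8, 109.5 and 116 for Fb-Skn. The Fb-Epn libraries were near one level and all others near another, with a 2.37-fold difference from Fb-Skn (adjusted p = 2.9e-11, edgeR) and a 2.01-fold one from Fb-Par (adjusted p = 3.6e-10). Fb-Par was 1.18-fold below Fb-Skn (adjusted p = 0.00072, edgeR), a call that was lost on TPM, where the log2 difference was -0.09 (adjusted p = 0.21, limma on log2(TPM + 1)).

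*Des* (ENSRNOG00000019810, chromosome 9), which encodes the muscle intermediate filament desmin, was near the limit of detection. It had 13, 13 and 21 counts in the Fb-Epn libraries, 6, 4 and 3 for Fb-Par and 2, 2 and 0 for Fb-Skn, which is 1.38 ± 0.455, 0.389 ± 0.113 and 0.121 ± 0.105 TPM (SD, n = 3). Fb-Epn lay above the other types without overlap. With so few counts, and a filter passed through Fb-Epn alone, these levels are given as a description.

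The likeness between the 10 genes was described by Pearson's r of log2(TPM + 1) over the 9 libraries, which fall into 3 tight groups by type, so that r mostly restates the order of the types. *Acta2* was most like *Cnn1* (0.99) and *Tagln* (0.94), and *Tpm1*, *Tpm2*, *Myl9* and *Myh11* had r of 0.98 to 1.00 with each other. *Acta2* and *Actg2* had r of -0.17, and *Des* had a negative r with every other gene of the set. Outside the set, the genes most like *Acta2* among all tested genes were *Tgfb3*, *RGD1564664*, *Scp2*, *Cercam* and *Cd44*, with r of 0.9968 to 0.9994. *Tgfb3*, which encodes a transforming growth factor beta, had 360.3 ± 6.60 TPM in Fb-Epn, 506 ± 3.18 for Fb-Par and 961 ± 30.3 for Fb-Skn (SD, n = 3).

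Other genes of the contractile apparatus were taken from a list of 23, of which 22 were tested. In edgeR, 12 of them were lower and 6 higher in Fb-Epn than Fb-Skn, beside 20.9% and 23% of all tested genes. Against Fb-Par, 17 were lower and 3 higher in Fb-Epn, beside 18.6% and 20.2%. In Fb-Par, 12 were higher and 7 lower than in Fb-Skn, beside 23.2% and 22.4%. The median log2 fold changes were -0.27, -0.76 and 0.24, and more of these genes were lower than higher in Fb-Epn in both comparisons. Their summed level was 3673 to 3718 TPM in Fb-Epn, 6328 to 6433 for Fb-Par and 4832 to 5044 for Fb-Skn. The counts and medians include *Kcnmb1*, lower in Fb-Epn than in both other types, and *Synpo2*, higher in both nerve types than Fb-Skn. Each passed the filter only through the types where it was high, so these directions are not read as a result.

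Several of these partners departed from *Acta2*. *Mylk* encodes myosin light chain kinase, the enzyme that phosphorylates the light chain, and had 19.3 to 21.9 TPM in Fb-Epn, 84.1 to 89.0 for Fb-Par and 2.33 to 3.15 for Fb-Skn. The type with the most *Acta2* thus had the least *Mylk*, 27.9-fold under Fb-Par (adjusted p = 1.2e-15, edgeR) and 6.62-fold under Fb-Epn (adjusted p = 1.4e-12). *Ppp1r14a*, which encodes the inhibitor CPI-17 of myosin light chain phosphatase, had the order of *Acta2*, with 47.6 ± 4.52 TPM in Fb-Epn, 119 ± 15.5 for Fb-Par and 264 ± 27.2 for Fb-Skn. Its log2 fold change was -2.62 in Fb-Epn against Fb-Skn (adjusted p = 4.9e-11, edgeR).

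*Fhl1* and *Fhl2*, which encode LIM domain adaptors, were high in Fb-Par. *Fhl1* had 152 ± 3.70 TPM in Fb-Epn, 694 ± 12.2 for Fb-Par and 169 ± 5.16 for Fb-Skn, and *Fhl2* had 193 ± 13.3, 822 ± 21.3 and 111 ± 3.70 (SD, n = 3). *Mustn1* was also called higher in Fb-Par than in both other types, with 68.3 TPM in Fb-Par. *Synpo2* had 4.30 TPM in Fb-Par, 0.925 in Fb-Epn and 0.259 in Fb-Skn, and was called higher in Fb-Par than Fb-Epn. With 5 to 6 counts in Fb-Skn, *Synpo2* passed the filter through the nerve types alone, so no test against Fb-Skn is given. *Csrp2*, another LIM protein of smooth muscle, was the opposite, with 29.7 ± 1.48 TPM in Fb-Par beside 164 ± 9.30 in Fb-Epn and 161 ± 9.11 in Fb-Skn. *Kcnmb1*, which encodes a subunit of the calcium-activated potassium channel of smooth muscle, had 0, 0 and 2 counts in Fb-Epn and was at least 10.4-fold lower there than in Fb-Skn and at least 9.45-fold lower than in Fb-Par, both against 3 counts per library. It passed the filter through the other types alone, so no test is given.

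Upstream of the contractile genes stand transcription factors, their cofactors and other regulators, 21 on the list and 19 tested. Of these, 12 were called in Fb-Epn against Fb-Skn (8 lower), 12 in Fb-Epn against Fb-Par (8 lower) and 11 in Fb-Par against Fb-Skn (4 lower). Over all tested genes 43.9%, 38.8% and 45.6% were called, with 20.9%, 18.6% and 22.4% lower in the first type. The median log2 fold changes of the list were -0.17, -0.05 and 0.18. Counted here as higher in both nerve types than Fb-Skn is *Gata6*. It passed the filter through the nerve types alone, so that direction is not read as a result. *Myocd*, which encodes myocardin, a cofactor of serum response factor in muscle, had 1.88, 2.08 and 2.24 TPM in Fb-Epn, 3.87, 4.39 and 4.84 for Fb-Par and 12.1, 15.2 and 15.8 for Fb-Skn. These types did not overlap and had the order of *Acta2*. *Myocd* was 7.64-fold lower in Fb-Epn than Fb-Skn (adjusted p = 1.1e-10, edgeR), 2.09-fold lower in Fb-Epn than Fb-Par (adjusted p = 1.9e-05) and 3.65-fold lower in Fb-Par than Fb-Skn (adjusted p = 6.1e-09).

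*Srf* itself, named here after its values were seen, differed by small steps, with 54.4 ± 3.25 TPM in Fb-Epn, 55.3 ± 0.968 for Fb-Par and 58.4 ± 2.52 for Fb-Skn (SD, n = 3), and the libraries of the types overlapped. In edgeR, Fb-Epn was 1.18-fold (adjusted p = 0.0019) and Fb-Par 1.17-fold (adjusted p = 0.0026) below Fb-Skn, and *Srf* was not called between the nerve types (adjusted p = 0.89). *Gata6*, a factor of smooth muscle and other mesoderm, ran against *Myocd*, with 16.5 ± 0.259 TPM in Fb-Epn, 11.0 ± 1.87 for Fb-Par and 0.466 ± 0.199 for Fb-Skn. With 3 to 7 counts in Fb-Skn, *Gata6* passed the filter through the nerve types alone, so no test against Fb-Skn is given. *Smad3*, a mediator of transforming growth factor beta signals, was likewise higher in Fb-Epn than Fb-Skn, by 1.02 on the log2 scale (adjusted p = 6.3e-09, edgeR). *Wwtr1*, which encodes the TEAD cofactor TAZ, was lower in Fb-Epn than Fb-Par by a log2 fold change of -0.70 (adjusted p = 9e-08, edgeR).

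Matrix and surface genes often named with myofibroblasts went both ways, with more of them higher than lower in Fb-Epn. Of the 15 tested, 9 were higher and 4 lower in Fb-Epn than Fb-Skn, beside 23% and 20.9% of all tested genes. Against Fb-Par, 10 were higher and 4 lower in Fb-Epn, beside 20.2% and 18.6%. In Fb-Par, 7 were higher and 5 lower than in Fb-Skn, beside 23.2% and 22.4%. The median log2 fold changes were 0.46, 0.40 and 0.10. *Col3a1*, a fibrillar collagen, had 13024 ± 103 TPM in Fb-Epn, 8348 ± 353 for Fb-Par and 4469 ± 86.1 for Fb-Skn, the reverse of *Acta2*. *Fn1*, which encodes fibronectin, had that reverse order too, at 5174 TPM in Fb-Epn and 2387 in Fb-Skn. *Tnc*, which encodes tenascin C, was a DE gene between Fb-Epn and Fb-Par, with 1469 ± 19.4 against 260.3 ± 9.91 TPM (log2 fold change 2.51, adjusted p = 6e-17, edgeR). *Col1a1*, the main fibrillar collagen, was highest in Fb-Skn, with 21077 ± 449 TPM beside 15869 ± 196 in Fb-Epn and 13724 ± 315 in Fb-Par. *Ccn2* and *Itgav*, named here after their values were seen, were called lower in Fb-Epn than in both other types. *Ccn2*, which encodes a secreted matrix-associated factor, had the order of *Acta2*, with 5492 ± 64.4 TPM in Fb-Epn, 6097 ± 57.0 for Fb-Par and 6803 ± 72.4 for Fb-Skn. *Itgav*, which encodes an integrin chain, had the order of *Myh11*, with 158 ± 5.42, 264 ± 6.01 and 203 ± 21.8 TPM (SD, n = 3).

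The non-muscle cytoskeleton gave a further picture. Of 22 tested genes, 15 were lower and 4 higher in Fb-Epn than Fb-Skn, beside 20.9% and 23% of all tested genes. Against Fb-Par, 9 were lower and 8 higher in Fb-Epn, beside 18.6% and 20.2%. In Fb-Par, 14 of these genes were lower and 4 higher than in Fb-Skn, beside 22.4% and 23.2%. Their median log2 fold changes were -0.35, -0.03 and -0.33. *Dstn*, which encodes the actin-severing protein destrin, ran as *Acta2* did, with 865 to 895 TPM in Fb-Skn, 692 to 731 in Fb-Par and 471 to 485 in Fb-Epn. *Vim*, which encodes the intermediate filament of mesenchymal cells, had 7794 ± 80.1 TPM in Fb-Epn, 5286 ± 67.1 for Fb-Par and 9317 ± 10.1 for Fb-Skn, far above *Des* in every library.

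**Figure D4:**
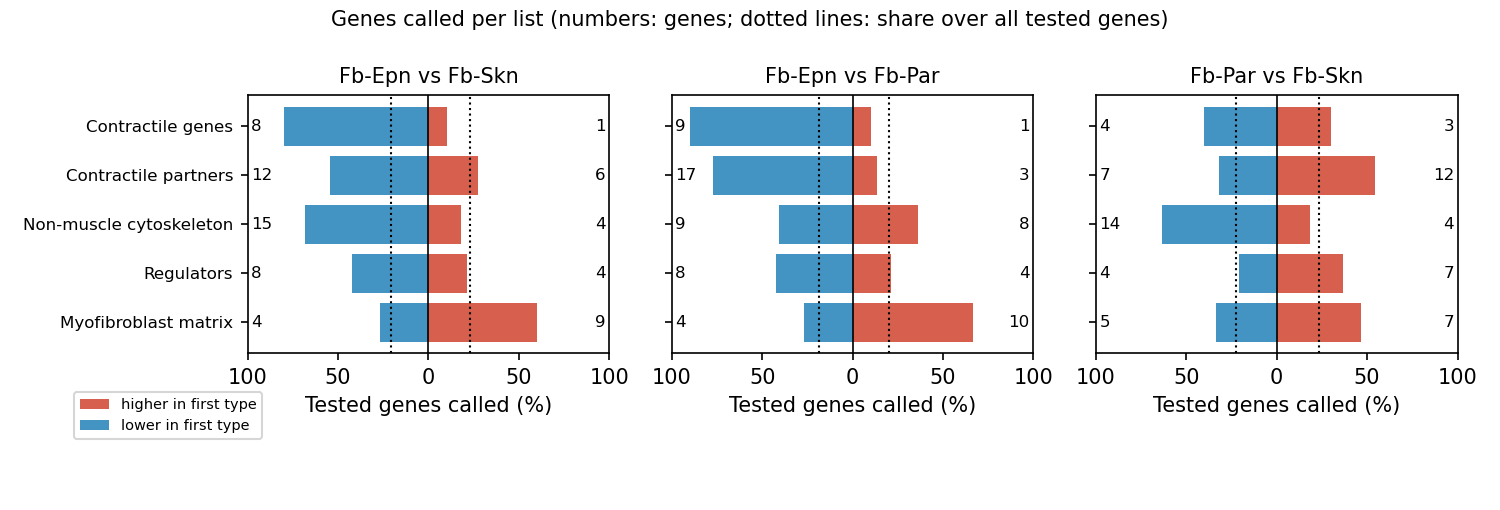
Share of tested genes called in edgeR (horizontal axis in percent) for the 10 contractile genes and 4 further lists, to the right when higher and to the left when lower in the first type. Printed numbers are genes, and dotted lines are the shares over all tested genes in each direction. In Fb-Epn, 8 and 9 contractile genes are lower, while 9 and 10 of the matrix genes are higher. The 1 contractile gene drawn as higher is *Des*, which passed the filter through Fb-Epn alone and is not read as a result. The partner bars include *Kcnmb1* and *Synpo2*, and the regulator bars *Gata6*, which passed the filter only through the types where they were high.

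Other cells with contractile genes were looked for by their markers. Of 18 skeletal and cardiac muscle markers measured, 6 had 0 counts in every library, among them *Myod1*, *Myog*, *Pax7* and *Actc1*, and 3 were tested. The list summed to 24.4 to 28.5 TPM in Fb-Epn, 101 to 113 for Fb-Par and 29.3 to 33.8 for Fb-Skn, and in Fb-Par this was mostly *Acta1*, a near copy of *Acta2*, at 85.9 ± 6.52 TPM (SD, n = 3). *Myh2*, a myosin heavy chain of fast skeletal muscle, was highest in Fb-Skn, with 8.53 ± 0.413 TPM beside 1.48 ± 0.0306 in Fb-Epn and 0.503 ± 0.0779 in Fb-Par, 6.34-fold above Fb-Epn (adjusted p = 1.2e-12, edgeR) and 18.6-fold above Fb-Par (adjusted p = 3.5e-14). The 11 markers of pericytes and vascular smooth muscle summed to 206 to 214 TPM in Fb-Epn, 413 to 434 for Fb-Par and 436 to 445 for Fb-Skn. They did not move as one. *Notch3* and *Cspg4* were highest in Fb-Par, with 72.5 and 73.1 TPM beside 6.35 and 8.48 in Fb-Epn and 1.55 and 26.4 in Fb-Skn. *Rgs5* had 14.9 TPM in Fb-Par and 4.49 in Fb-Epn, with 0 counts in Fb-Skn, and *Ndufa4l2* had 5.84 in Fb-Par, 101 in Fb-Epn and 253 in Fb-Skn. *Ndufa4l2* thus made up most of the sum in Fb-Skn. In Fb-Par the largest part was *Mcam*, named here after its values were seen. It had 241 TPM there, beside 63.4 in Fb-Epn and 138 in Fb-Skn. The part of mural cells in the levels of the contractile genes was not tested. Endothelial markers summed to at most 11.0 TPM and keratinocyte markers to at most 4.16. The 3 perineurial markers summed to 156 to 163 TPM in Fb-Epn, 41.3 to 46.7 for Fb-Par and 75.3 to 84.1 for Fb-Skn. Most of this was *Slc2a1*, with 144.7, 34.9 and 69.0 TPM, and *Itgb4* had the same order of types. *Cldn1*, named here after its values were seen, did not, with 0 to 3 counts in Fb-Epn, 4 to 7 in Fb-Par and 0 in Fb-Skn.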

How the data were processed

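Cultured fibroblasts of 3 types were analysed, with 3 libraries per type. Per the labels, reads of 150 bp were sequenced in pairs from directional poly(A) libraries, and the processing notes name Trimmomatic 0.38, HISAT2 2.1.0, featureCounts 1.6.3 and the build rn6. The annotation release and the settings for strand and for reads with several matches are not given in the sources used here. The authors deposited raw counts per gene, TPM, and FPKM, and the deposited FPKM were used only as an alternative. Groups and replicate numbers came from the labels.

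Counts were tested with edgeR 4.0.16 (TMM, default expression filter, quasi-likelihood F test) in R 4.3.3, in 1 model of the 9 libraries, with Benjamini-Hochberg adjustment over 13273 genes and a threshold of 0.01. Levels are deposited TPM. The common coefficient of variation within a type was 8.25%. On simulated Fb-Epn and Fb-Skn counts of 13052 genes, 58 of 100 genes changed 1.5-fold and 99 of 100 changed 4-fold were recovered, and 3 unchanged genes were called. Only these genes were changed there, up and down in equal number and none of low count, and all others had equal levels. In the real comparison 43.9% of all tested genes were called, so these rates need not hold for it. A fold against a type with at most 3 counts in each library was taken against 3 counts per library. Intervals are at 95% by a normal approximation from the standard error, which makes them narrower than the test itself implies.

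The 10 genes and the other lists were chosen with earlier results of these data known. From each other list the up to 4 called genes with the largest absolute log2 fold change per comparison could be named, and of the isoform families every gene. Alternatives were other normalizations, DESeq2 1.42.0, limma 3.58.1 on log2 TPM with pseudocounts of 1 and 0.1, other filters and thresholds, 1 library left out, and the replicate number as a block.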

Additional observations from a re-analysis of the deposited data

How the results depend on the processing

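Of 626 recomputed values of the contractile genes, *Des* included, and of their counts, 590 kept their direction and their side of the threshold. *Myh11* stayed a DE gene between Fb-Epn and Fb-Skn in every alternative fit, with log2 fold changes of -2.525 to -2.297. When edgeR tested against a log2 fold change of 1, 4 of the 9 genes other than *Des* were called between Fb-Epn and Fb-Par. Between Fb-Par and Fb-Skn 2 were called. The direction turned for *Actg2* between Fb-Epn and Fb-Skn, to 0.036 and 0.037 on log2 TPM with pseudocounts of 1 and 0.1, and for *Tpm1* between Fb-Par and Fb-Skn, to 0.068 with library size as the only scaling and 0.12 on log2 TPM with both pseudocounts, where TPM and counts are scaled apart. With library size as the only scaling, *Myl9* was called between Fb-Par and Fb-Skn (0.17) and *Lmod1* was not (-0.14). From FPKM, the log2 ratio of the sums was -1.24 between Fb-Epn and Fb-Skn and -0.45 between Fb-Par and Fb-Skn. The cause was not tested. Isoform shares moved beyond 1 SD in 28 of 60 cases on FPKM and in 44 of 60 on CPM without length, and in 0 of 180 with 1 library left out.

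The replicate numbers of the labels were not taken to pair the libraries. Deviations of libraries with the same number had r of -0.08 to 0.02, and those with different numbers -0.04 to 0.09. A low r cannot exclude a shared animal, since counting noise also lowers it, and both nerve types came from the same 2 rats. With the replicate block and *Des* set aside, 8 of the other 9 genes were called in Fb-Epn against Fb-Skn. All 9 were called against Fb-Par, and 7 in Fb-Par against Fb-Skn.

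Depth limits *Des* and *Kcnmb1*, with at most 33 counts in any library, and *Gata6* and *Synpo2* in Fb-Skn, with 3 to 7 and 5 to 6 counts. No values of the lists' genes *Col1a2*, *Palld*, *Mrtfb*, *Ttn*, *Myh1*, *Myh4*, *Pecam1* and *Itgam* are given, as no gene matched these symbols.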
